A study of Mus musculus with 2 samples.

Results

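The 30 genes described here encode enzymes and transporters of glucose uptake, glycolysis and glycogen metabolism, out of 16310 annotated genes with a read in either library. They were taken by gene symbol from a list of the pathway, with their reads on every class of transcript model; 19 belong to glucose entry and glycolysis and 11 to glycogen metabolism. Total RNA of hearts from 14-day-old females of the F1 hybrid strain B6CASTF1/J was sequenced in long reads, each from 1 cDNA molecule. The series holds 1 group, with no treatment and no other genotype, measured in replicate 1 and replicate 2. The labels number them as biological replicates but name the animal of replicate 2 differently in separate fields, so whether separate animals were used is not clear. Every interval and p-value below therefore covers counting error only, and the difference between replicates may be technical in origin.

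Glycolysis splits glucose into pyruvate, and glycogen is the store of glucose that muscle builds after feeding and breaks down when energy is needed. Most steps have several isozymes, each from its own gene, and muscle is known for its own set: Slc2a4, Hk2, Pfkm, Pgam2, Eno3 and Pygm. The adult heart is known to burn mainly fatty acids, to which it turns after birth, while keeping glycolysis and a glycogen store for work and low oxygen. Several of the genes are also known for alternative first exons or alternative exons, which full-length reads show directly.

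Replicate 1 held 896941 reads and replicate 2 held 972159, of which 12223 and 12825 were on spike-in RNA. Values are reads scaled to 1000000 reads other than spike-ins (CPM), so 1 read was worth 1.13 CPM in replicate 1 and 1.04 CPM in replicate 2. A count of 0 allowed up to 3 reads, or 3.39 and 3.13 CPM. A long read is a single molecule, so CPM are not divided by length. Long transcripts may be less often read in full, so lengths of leading forms are given where the text compares shares of isozymes. All 10 cardiomyocyte markers were detected, summing to 53346 CPM in replicate 1 and 55609 CPM in replicate 2. In the comparison of the libraries below, 1 of the 10 was called higher and 5 lower in replicate 1. Over all genes tested, 1.69% were called in either direction. The called markers had at least 1544 reads in each library, and log2 ratios as small in size as -0.14 (Actc1) were called. Of 12 skeletal muscle markers, 0 had 3 reads in both libraries and 8 were at 0 in both, and the list summed to 4.52 and 8.34 CPM. In such bulk tissue, fewer cells of a type and less RNA per cell cannot be told apart.

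The sequences that carry the main splicing findings come first. Eno1, one of the enolases, had a pair of 59-base coding exons on chromosome 4 that replace each other, at chr4:150241767-150241825 and chr4:150242122-150242180 (mm10, plus strand). Most heart reads used the upstream exon, which GENCODE M21 holds in the short model Eno1-205, and the rest used the downstream exon of the full-length Eno1-202. They are printed with the exon of Eno3 at the same place in the enolase, chr11:70658389-70658447, plus strand. Capitals mark bases that differ between the Eno1 exons and, in Eno3, bases found in neither.
Eno1 upstream exon: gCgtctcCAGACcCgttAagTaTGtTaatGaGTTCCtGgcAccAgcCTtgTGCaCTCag
Eno1 downstream exon: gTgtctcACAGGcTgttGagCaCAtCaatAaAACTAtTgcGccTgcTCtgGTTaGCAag
Eno3 exon: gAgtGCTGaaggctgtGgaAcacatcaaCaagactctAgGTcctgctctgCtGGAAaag
The Eno1 exons shared 30 of 59 bases, and 11 of the 19 whole codons encode another residue. The downstream exon shared 40 bases with the Eno3 exon and the upstream exon shared 25.

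Ugp2, the enzyme that makes UDP-glucose for glycogen, was read from a pair of first exons on chromosome 11 (minus strand), and the annotated protein start differs between the forms. Below are the first 30 coding bases of each form, with the start codon in capitals. The first coding base of Ugp2-202 is 21370205, in its first exon, and that of Ugp2-201 is 21354392, in the exon that follows in both forms.
Ugp2-202: ATGtcgagatttgtacaagatcttagcaaa
Ugp2-201: ATGtctcaagatggtgcttctcagttccaa
The coding sequence of Ugp2-202 holds 508 codons and that of Ugp2-201 holds 497, so the forms differ by 11 codons at the start.

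Together the 30 genes took 14064 reads or 15897 CPM in replicate 1 and 14936 reads or 15569 CPM in replicate 2, a mean of 15733 ± 232 CPM (SD, n = 2). That is 1.59% and 1.56% of all reads. Glucose entry and glycolysis summed to 13846 ± 140 CPM and glycogen metabolism to 1886 ± 91.1 CPM (SD, n = 2 each). A pair of genes, Aldoa and Eno3, held 57.3% of these reads in replicate 1 and 56.6% in replicate 2, and the highest 10 genes held 86.8% and 87.0%. Of the 30 genes, 28 had at least 3 reads in both libraries, and the exceptions were Pfkfb1 and Aldoc.

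**Figure D1:**
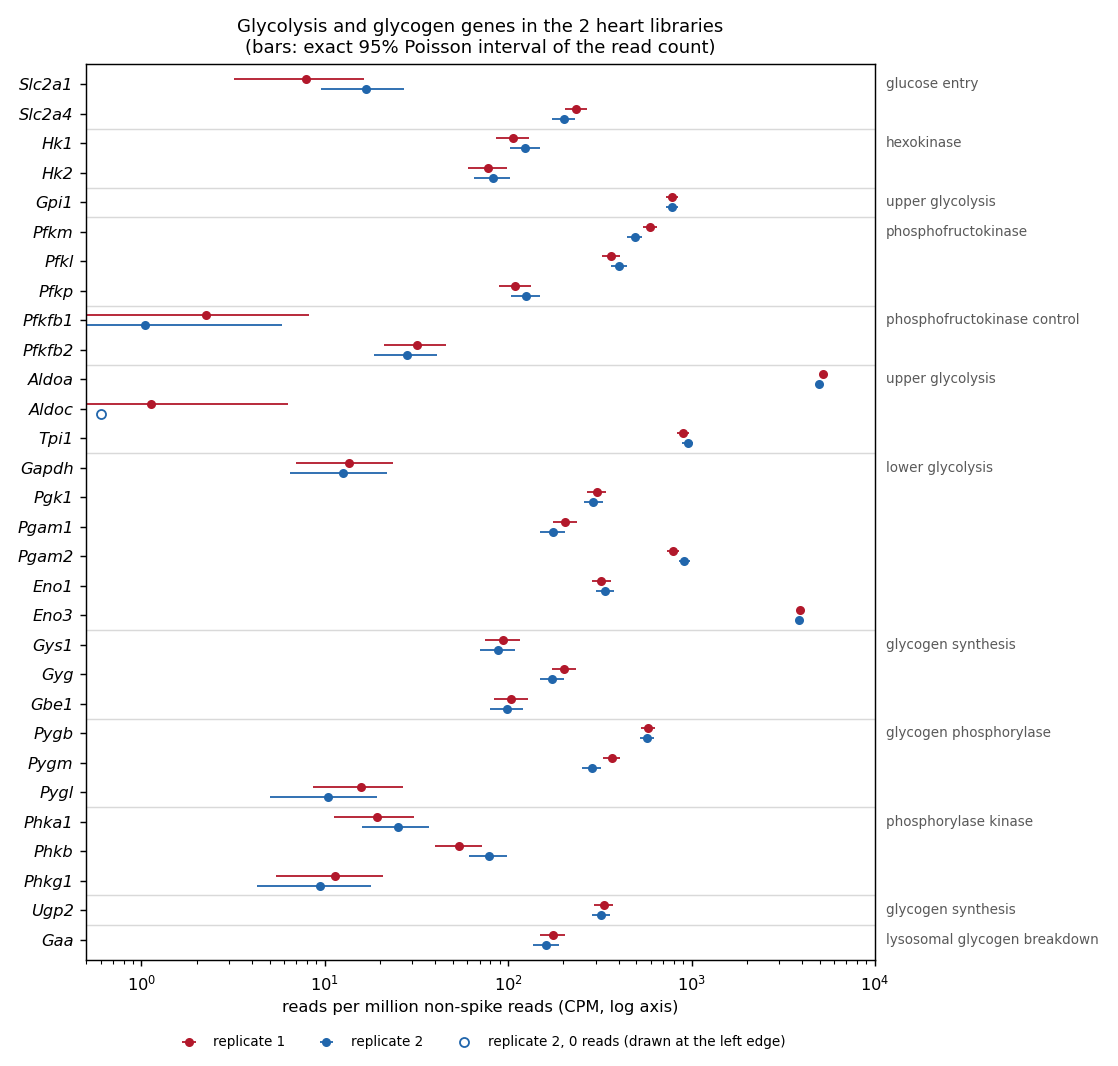
CPM of each gene in replicate 1 (red) and replicate 2 (blue) on a log axis, ordered along the pathway with the role at the right; bars are exact 95% Poisson intervals of the read count. The genes run from Aldoa at 5216 and 4959 CPM down to Aldoc, with 1 read in replicate 1 and 0 in replicate 2 (open circle).

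Glucose enters cardiac muscle through transporters of the plasma membrane. Slc2a4, the insulin-responsive transporter of muscle and fat, had 207 reads (234 CPM) in replicate 1 and 193 (201 CPM) in replicate 2. Slc2a1, the basal transporter that is prominent in fetal heart, had 7 reads (7.91 CPM) and 16 (16.7 CPM). Slc2a4 thus held 96.7% of the reads of the pair in replicate 1 and 92.3% in replicate 2, 94.5% ± 3.10 (SD, n = 2). The leading forms measure 2524 bases for Slc2a4 and 3260 bases for Slc2a1. Fat cells also express Slc2a4, and 5 adipocyte markers summed to 244 CPM in replicate 1 and 335 CPM in replicate 2. Their part in the level of Slc2a4 was not tested.

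Hexokinases trap glucose in the cell by phosphorylating it. Hk1, the constitutive isozyme, had 94 reads (106 CPM) in replicate 1 and 119 (124 CPM) in replicate 2. Hk2, the isozyme of insulin-responsive muscle, had 69 reads (78.0 CPM) and 79 (82.3 CPM). Hk1 held 57.7% of the pair's reads in replicate 1, with an exact 95% interval of 49.7 to 65.4%, and 60.1% (52.9 to 67.0%) in replicate 2. The order therefore exceeded counting error in replicate 2 alone, and on annotated models alone the mean share of Hk1 was 85.3%. The longest read form measured 4278 bases for Hk1 and 5513 bases for Hk2.

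In the upper steps, Gpi1, the isomerase that makes fructose phosphate, had 781 and 785 CPM. Its log2 ratio between the libraries, -0.01, was the smallest in size among the 28 genes tested. Aldoa, the aldolase of muscle and red cells, was the highest gene of the pathway with 4615 reads (5216 CPM) in replicate 1 and 4757 (4959 CPM) in replicate 2, rank 14 among all genes listed. Aldoc, the aldolase of brain, had 1 read and 0 reads. Tpi1, the triose isomerase, followed Aldoa and Eno3 at 900 and 954 CPM. Aldoa is known to be abundant in red blood cells, and 7 erythroid markers summed to 16120 CPM in replicate 1 and 13860 CPM in replicate 2, whose part was not tested.

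Phosphofructokinase commits hexose phosphate to glycolysis, and its tetramers mix a muscle, a liver and a platelet subunit. Pfkm, the muscle subunit, had 524 reads (592 CPM) in replicate 1 and 469 (489 CPM) in replicate 2. Pfkl, the liver subunit, had 322 reads (364 CPM) and 387 (403 CPM). Pfkp, the platelet subunit, had 97 reads (110 CPM) and 120 (125 CPM). Pfkm held 55.6% of the reads of the 3 genes in replicate 1 (exact 95% interval 52.3 to 58.8%) and 48.1% (44.9 to 51.2%) in replicate 2. Pfkl held 34.1% and 39.7%, and Pfkp 10.3% and 12.3%. Over all classes of model, the order Pfkm, Pfkl, Pfkp was the same in both libraries and the intervals of neighbours did not overlap in either. On annotated models alone, Pfkm had 391 reads and Pfkl 289 in replicate 1, but 342 and 346 in replicate 2. The lead of Pfkm in replicate 2 therefore depended on the other classes. The leading forms measure 2879, 3730 and 4145 bases, in the same order.

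The bifunctional enzymes that set the level of the activator of phosphofructokinase were low. Pfkfb2, the cardiac isozyme, had 28 and 27 reads (31.6 and 28.1 CPM). On annotated models alone, scaled to the reads on such models, its mean was 5.17 CPM. Pfkfb1, the isozyme of liver and skeletal muscle, had 2 reads in replicate 1 and 1 in replicate 2, at or under the limit that a count of 0 allows.

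In the lower steps, Eno3, the muscle enolase, was second of all the genes with 3440 reads (3888 CPM) in replicate 1 and 3693 (3850 CPM) in replicate 2. Eno1, the enolase of most tissues, had 285 and 323 reads (322 and 337 CPM). Eno3 thus held 92.3% and 92.0% of their reads, 92.2% ± 0.277 (SD, n = 2). The leading forms measure 1454 bases for Eno3 and 2021 bases for Eno1. Pgam2, the muscle phosphoglycerate mutase, had 698 reads (789 CPM) in replicate 1 and 876 (913 CPM) in replicate 2. Pgam1, its ubiquitous isozyme, had 181 and 168 reads (205 and 175 CPM). Pgam2 held 79.4% of the pair's reads in replicate 1 (exact 95% interval 76.6 to 82.0%) and 83.9% (81.5 to 86.1%) in replicate 2. Pgam2-201 measures 840 bases and Pgam1-201 measures 1775.

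Pgk1, the phosphoglycerate kinase on chromosome X, had 269 and 280 reads (304 and 292 CPM). It is uncertain because Pgk1-rs7, a related sequence, took 76 and 55 reads. Gapdh, which oxidises glyceraldehyde phosphate, had 12 reads in each library, 13.6 and 12.5 CPM, and ranked 7390 of 16310 genes. No further reads lay on its locus in any class. Gapdh has many near-identical copies in the mouse genome, so its count is uncertain, and whether its reads were placed on copies was not tested. Gapdh-ps15 held 1 read in each library and Gapdhs, the sperm isozyme, 9 and 5.

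**Figure D2:**
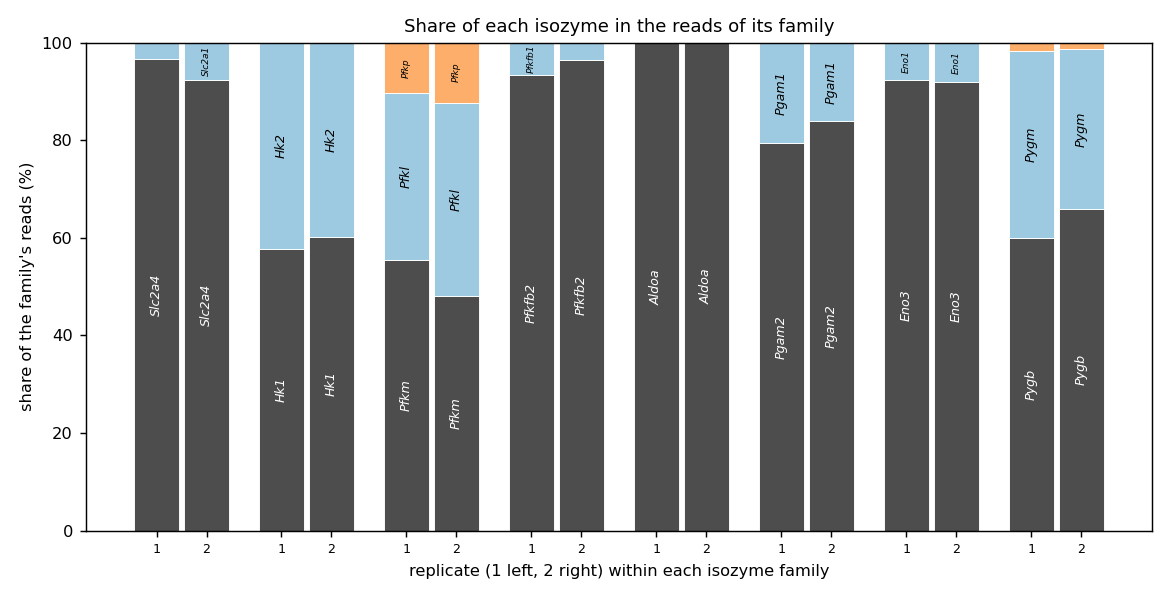
Share of each isozyme in the reads of its family, as stacked bars with replicate 1 left of replicate 2. Slc2a4, Pfkfb2, Aldoa, Pgam2 and Eno3 fill most of their bars, while Hk1 with Hk2, the 3 Pfk genes and Pygb with Pygm divide theirs; Pygl and Aldoc are thin or too small to see.

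Glycogen is built on glycogenin, lengthened by glycogen synthase and branched by the branching enzyme. Ugp2, which supplies UDP-glucose, had 293 reads (331 CPM) in replicate 1 and 307 (320 CPM) in replicate 2. Gyg, glycogenin, had 179 and 167 reads (202 and 174 CPM). Gbe1, the branching enzyme, had 92 and 94 reads (104 and 98.0 CPM). Gys1, the muscle glycogen synthase, had 83 and 84 reads (93.8 and 87.6 CPM). These 4 genes summed to 731 and 680 CPM.

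Glycogen phosphorylase releases glucose phosphate from glycogen. Pygb, the brain isozyme, was the highest of the 3 with 510 reads (576 CPM) in replicate 1 and 549 (572 CPM) in replicate 2. Pygm, the muscle isozyme, had 325 reads (367 CPM) and 274 (286 CPM). Pygl, the liver isozyme, had 14 and 10 reads. Pygb held 60.1% of the family's reads in replicate 1 (exact 95% interval 56.7 to 63.4%) and 65.9% (62.6 to 69.1%) in replicate 2, above Pygm at 38.3% (35.0 to 41.6%) and 32.9% (29.7 to 36.2%). The intervals did not overlap in either library. Pygb-201 measures 3909 bases and Pygm-201 measures 2874.

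Phosphorylase kinase switches phosphorylase on and has regulatory alpha and beta subunits and a catalytic gamma subunit. Phkb, the beta subunit, had 48 reads (54.3 CPM) in replicate 1 and 75 (78.2 CPM) in replicate 2. Phka1, the muscle alpha subunit, had 17 and 24 reads. Phkg1, the muscle gamma subunit, had 10 and 9 reads (11.3 and 9.38 CPM). The locus of Phkg1 also carried reads placed on an overlapping gene, and with those it would hold 334 and 423 reads. Gaa, the lysosomal enzyme that degrades glycogen, had 155 reads in each library (175 and 162 CPM).

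Of 47 other genes of the pathway, 39 had a read and 32 had at least 3 in both libraries, and together they summed to 11783 CPM in replicate 1 and 11638 CPM in replicate 2. The highest were Ldha, which makes lactate, at 2959 and 2810 CPM, Pkm, the pyruvate kinase, at 2588 and 2478 CPM, and Ldhb, the lactate dehydrogenase subunit prominent in heart, at 2436 and 2566 CPM. Lower levels were read for the phosphatase subunits Ppp1ca (556 and 556 CPM) and Ppp1cb (500 and 459 CPM), Pgm1 (408 and 398 CPM), which interconverts glucose phosphates, and Calm3 (284 and 313 CPM). Genes at 0 in both libraries included Fbp1, G6pc, Gys2, Hk3, Hkdc1, Pgk2 and Pklr, several of them enzymes of liver.

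The 2 libraries were compared gene by gene by the exact binomial test (two-sided), and p-values were adjusted by the Benjamini-Hochberg method over the 9907 genes that had at least 10 reads. Across all genes 1.69% were called at an adjusted p under 0.05, 88 higher and 79 lower in replicate 1. Of the 28 genes of the pathway that were tested, 0 were called. At an unadjusted p under 0.05 there were 5 of the 28 (17.9%), against 905 of all 9907 (9.13%). Among genes with at least 100 reads these shares were 22.7% of 22 pathway genes and 16.2% of 3014 genes. Over the 28 genes tested, the median log2 ratio, replicate 1 over replicate 2, was 0.05, against -0.001 over all 9907. The median size of the ratio was 0.16, against 0.28. Among genes with at least 100 reads, the median size was 0.11 for the pathway genes, against 0.17. Of the 31 other pathway genes tested, 0 were called.

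The smallest p-values belonged to Pygm, Pfkm and Pgam2. Pygm had 367 CPM in replicate 1 and 286 CPM in replicate 2, a log2 ratio of 0.36 (exact 95% interval 0.13 to 0.60), with an adjusted p of 0.0995 by the exact binomial test. Pfkm had 592 and 489 CPM, a log2 ratio of 0.28 (0.09 to 0.46), with an adjusted p of 0.112 by the same exact test. Pgam2 had 789 and 913 CPM, a log2 ratio of -0.21 (-0.36 to -0.07), with an adjusted p of 0.150 by the same exact test. With DESeq2 size factors in place of the totals, Pgam2 alone was called, at a log2 ratio of -0.25 and an adjusted p of 0.0477 by the exact binomial test. Its incomplete reads that lack the first exon numbered 25 in replicate 1 and 67 in replicate 2, while reads of the full form numbered 667 and 807. Markers of several cell types moved between the libraries too, where 1.69% of all genes were called. In replicate 1, 4 of 5 erythroid markers tested were called higher and 0 lower. Of 10 cardiomyocyte markers 1 was called higher and 5 lower, and of 5 adipocyte markers 1 was called lower. For 6 fibroblast and 5 endothelium markers, 0 were called. The 4 lung markers summed to 133 and 9.38 CPM. Of that sum Scgb1a1, the only one tested, held 125 and 7.30 CPM and was called higher. The part of these markers in the ratios of Pygm, Pfkm and Pgam2 was not tested.

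**Figure D3:**
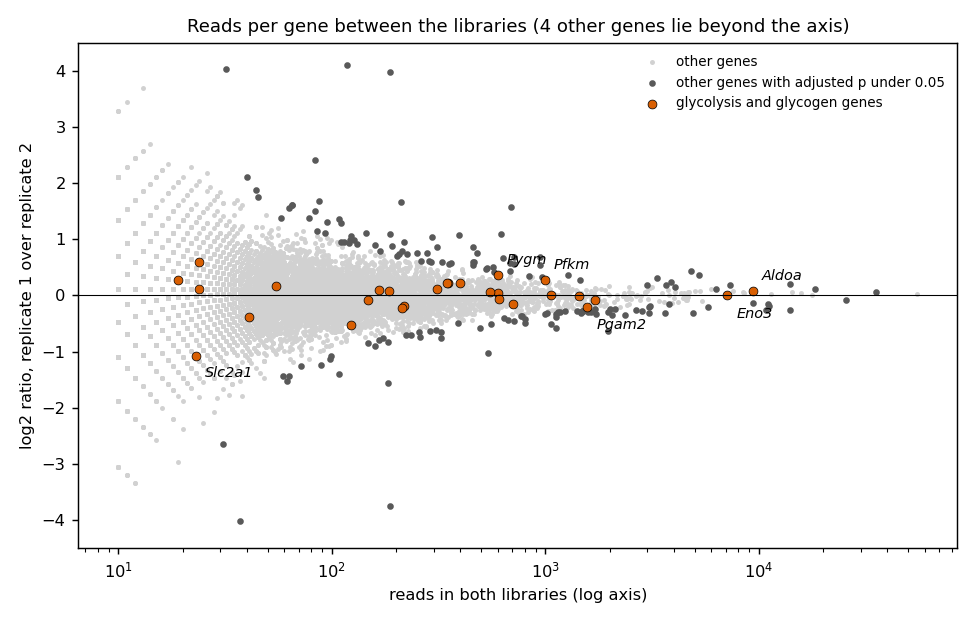
Log2 ratio of reads per gene, replicate 1 over replicate 2, against the reads in both libraries on a log axis; orange points are the glycolysis and glycogen genes, dark points other genes with an adjusted p under 0.05. The orange points lie within the grey cloud, with Pygm at 0.36 and Pgam2 at -0.21, and Slc2a1 lowest at -1.08 on 23 reads.

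Among the reads of the 30 genes, 88.1% in replicate 1 and 87.5% in replicate 2 matched an annotated form, against 78.8% and 78.8% over all annotated genes. Incomplete models, which match part of an annotated chain of introns, held 4.94% and 5.16%, against 8.99% and 8.89% over all annotated genes. Spliced forms absent from the annotation held 6.66% and 6.98%, against 9.22% and 8.84%. Reads of the genomic class, which match no splicing pattern within a gene, held 0.35% and 0.40%, against 3.04% and 3.45%. Of the incomplete reads, 92.1% and 90.8% lacked the 5′ part of the transcript, against 78.5% and 79.0% over all annotated genes.

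The incomplete share varied widely between genes. It was highest in Pygm (37.2% in replicate 1 and 35.0% in replicate 2), Hk2 (31.9% and 38.0%) and Gys1 (26.5% and 31.0%). It was lowest, among genes with at least 50 reads, in Tpi1 (0.75% and 0.87%), Pgam1 (1.66% and 0.60%) and Eno1 (1.75% and 0.93%). The median over the 23 genes with at least 50 reads was 5.91%, against 4.30% over 5102 genes. In Pygm the incomplete reads began at many exons, and the most frequent model, with 30 and 23 reads, kept 16 of the 20 exons.

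**Figure D4:**
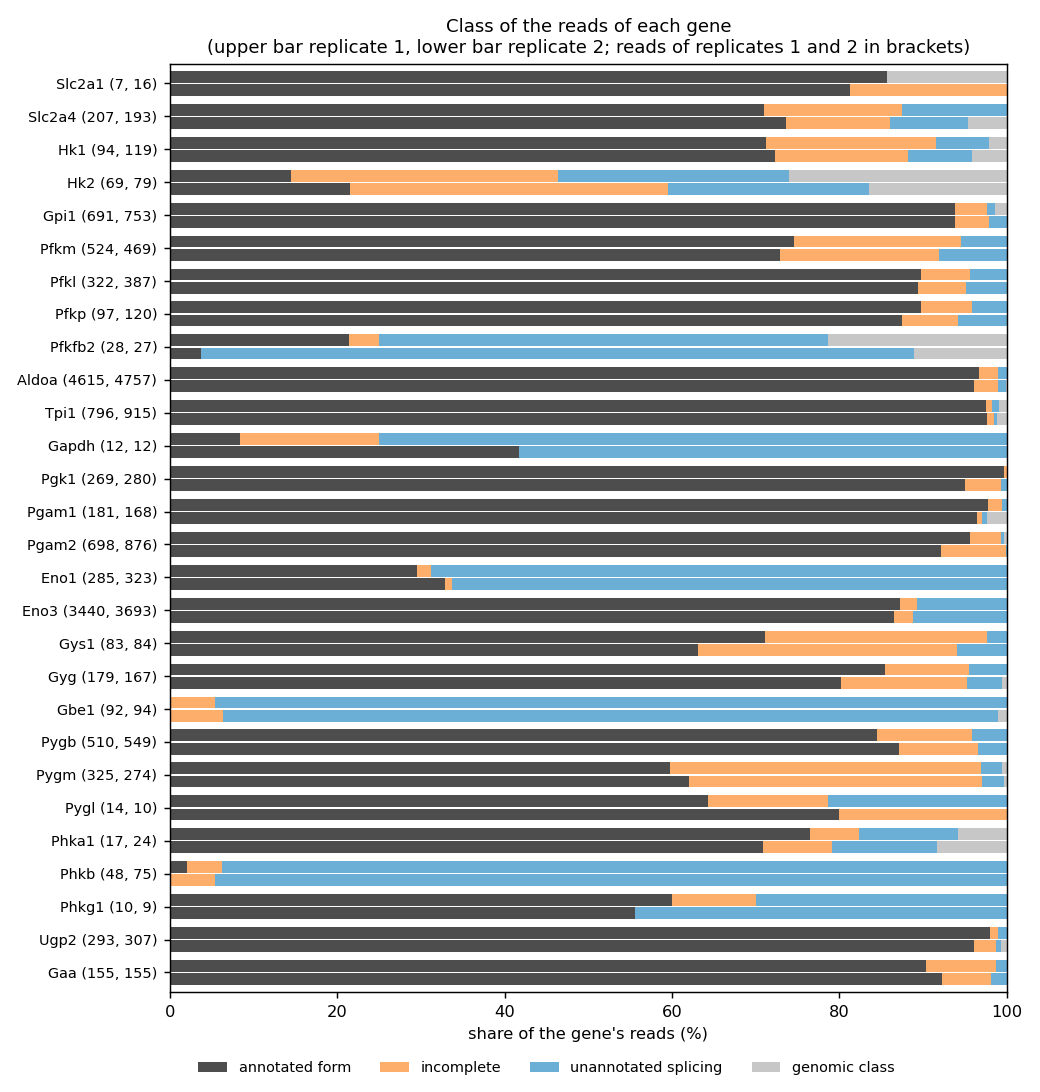
Share of each gene's reads in the annotated, incomplete, unannotated spliced and genomic classes, with replicate 1 above replicate 2 and both read counts in brackets, for the 28 genes with at least 10 reads in all. Gbe1, Phkb, Eno1, Pfkfb2 and, on 12 reads in each library, Gapdh are mostly blue, that is spliced in a way the annotation does not hold over the full length. Pygm and Hk2 have the widest orange parts among genes with at least 50 reads.

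The leading form could be set against the others in 21 of the genes. Usable reads here are those on annotated forms or on unannotated spliced forms that reached 5 reads in both libraries, and a gene needed 20 of them per library. In 16 of the 21, or 76.2%, the leading form held at least 90% of usable reads, against 69.0% of 4348 genes. In 7 of the 21 it was the only usable form read, against 1601 of the 4348. Leading forms close to 100% were Aldoa-201 (98.6% and 98.7%), Gpi1-201 (99.4% and 99.7%), Tpi1-205 (98.8% and 99.4%) and Pfkp-207 (97.7% and 98.1%). Slc2a4-201, Gyg-201, Pygb-201 and Pygm-201 each held over 98% in both libraries. Hk1-202, Pfkl-201, Pgk1-201, Pgam1-201, Pgam2-201 and Gys1-201 held all usable reads. Below 90% were Eno1, Eno3, Ugp2, Gaa and Phkb. After Benjamini-Hochberg adjustment, Fisher's exact test called 0 of the 21 genes different between the libraries, where 0.023% of all genes were called, and at an unadjusted p under 0.05 there were 0 of the 21 and 96 of the 4348.

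In 8 cases an internal exon of these genes, counted once per upstream donor site, had a mean inclusion between 5 and 95%: 2 in Eno1, 4 in Eno3 and 2 in Phkb. Fisher's exact test called 0 of them different between the libraries, as it did 0 of 2472 exons over all genes, or 0%; at an unadjusted p under 0.05 there were 0 of the 8 and 100 of all.

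The upstream Eno1 exon printed above was included in 188 of 272 spanning reads in replicate 1 (69.1%, exact 95% interval 63.3 to 74.6%) and in 200 of 305 in replicate 2 (65.6%, 59.9 to 70.9%). The downstream exon was in the other 84 and 105 reads (30.9% and 34.4%). The form with the upstream exon has 12 exons and 2021 bases, and GENCODE M21 holds no model with its whole chain of introns. All 59 bases of either exon are coding in the annotation, so the exchange keeps the length of the coding sequence. Eno1b, an Eno1 copy whose transcript holds the downstream exon with 59 of 59 bases identical, took a further 60 and 69 reads. If all of those belonged to Eno1, the upstream exon would stand at 56.6% and 53.5%, an alternative added after the data had been seen.

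Eno3 was read in 10 usable forms that differ mainly before the start codon. Eno3-201 held 1913 of 3308 usable reads (57.8%) in replicate 1 and 2034 of 3526 (57.7%) in replicate 2. Eno3-202 held 988 (29.9%) and 1075 (30.5%). The forms differ in the acceptor of the exon that carries the start codon, chr11:70657872-70657958 with 87 bases or chr11:70657760-70657958 with 199 bases, and both versions hold the same 85 coding bases. After the leading donor, at 70657267, the short version was used in 65.7% and 65.2% of reads, and the long version in 34.3% and 34.8%. After the donor at 70657279 the short version was used in 165 of 228 reads (72.4%) and 165 of 214 (77.1%), and the long one in 27.6% and 22.9%.

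The donor of the first exon of Eno3 was at 70657267 in 89.1% of usable reads in replicate 1 and 90.2% in replicate 2. The donor at 70657279, in forms the annotation lacks, held 6.89% and 6.07%, as 165 and 165 reads with the short exon and 63 and 49 reads with the long one. Eno3-206, which begins at 70657796 inside the long exon, held 3.02% and 2.41%. Other forms of Eno3 hold its whole chain of introns, so its reads were not told apart from reads of those forms cut short. A first exon at chr11:70656493-70656780 was seen in 9 and 25 reads, and donors at 70657272 and 70657322 in 16 and 12 and in 8 and 9 reads. The 59-base coding exon printed above was extended to 63 bases, to 70658451, in 46 reads (1.39%) and 72 reads (2.04%), of which 24 and 41 carried the short exon at the start codon and 22 and 31 the long one.

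**Figure D5:**
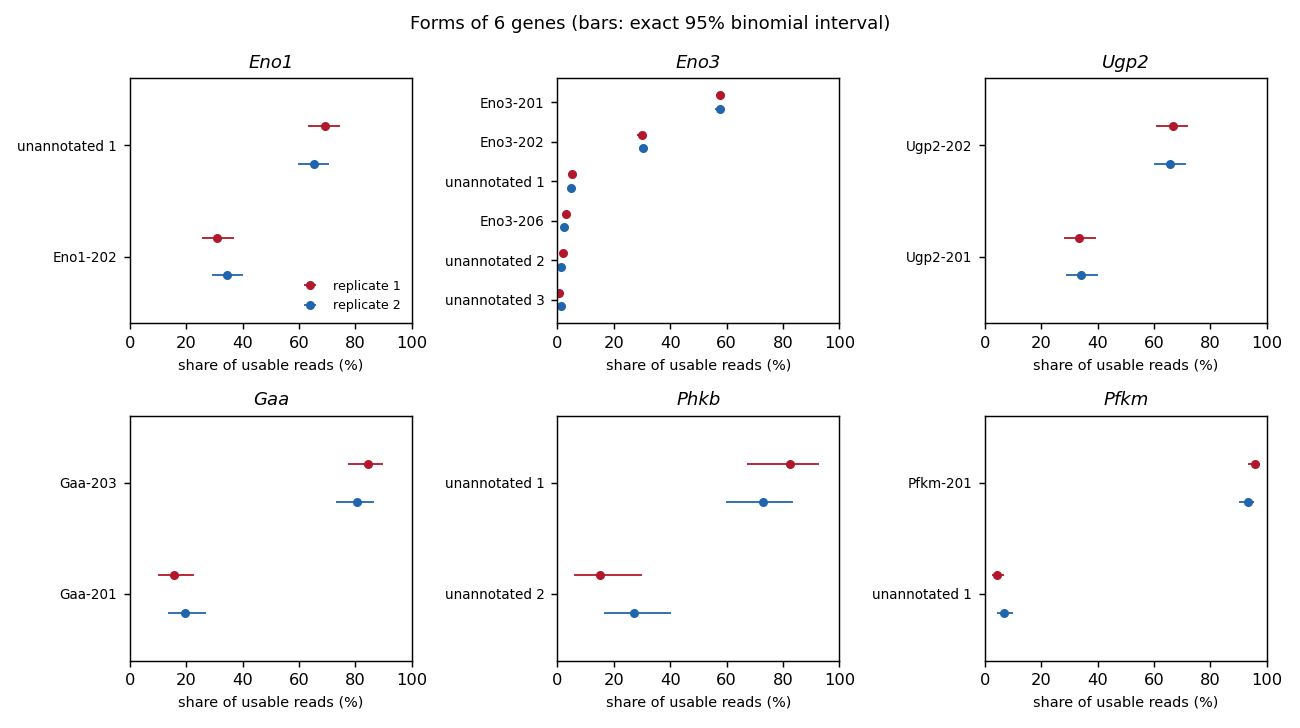
Share of usable reads held by each form of Eno1, Eno3, Ugp2, Gaa, Phkb and Pfkm, with replicate 1 (red) above replicate 2 (blue); bars are exact 95% binomial intervals and forms under 8 reads in all are left out, with the first 6 forms shown for Eno3. Replicates overlap for most forms, and the unannotated form leads in Eno1 and Phkb.

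Ugp2-202 held 191 of 287 usable reads (66.6%) in replicate 1 and 194 of 295 (65.8%) in replicate 2. Ugp2-201, whose printed start lacks 11 codons, held 96 (33.4%) and 101 (34.2%). RefSeq has a start near each first exon, and the 250 bases upstream of each (GRCm38.p6, minus strand) are shown because reads used both first exons. The first, chr11:21370630-21370879, lies before Ugp2-202 and the second, chr11:21371268-21371517, before Ugp2-201.
Ugp2-202 promoter: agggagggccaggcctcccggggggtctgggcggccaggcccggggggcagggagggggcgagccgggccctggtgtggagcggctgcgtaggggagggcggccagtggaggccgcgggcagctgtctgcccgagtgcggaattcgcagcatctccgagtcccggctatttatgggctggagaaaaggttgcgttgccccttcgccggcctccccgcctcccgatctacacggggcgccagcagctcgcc
Ugp2-201 promoter: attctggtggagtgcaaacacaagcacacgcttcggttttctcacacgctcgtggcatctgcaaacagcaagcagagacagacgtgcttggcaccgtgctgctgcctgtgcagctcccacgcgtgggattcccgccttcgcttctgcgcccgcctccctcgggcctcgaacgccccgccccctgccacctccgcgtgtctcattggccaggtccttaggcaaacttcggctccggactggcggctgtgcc
The table's windows, which run 50 bases past the start, hold 76.0% and 63.3% G and C, and 32 and 23 CG pairs.

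Gaa had a pair of overlapping first exons with different donor sites. Gaa-203, with the donor at 119268222, held 118 of 140 usable reads (84.3%) in replicate 1 and 115 of 143 (80.4%) in replicate 2. Gaa-201, with the donor at 119268091, held 22 (15.7%) and 28 (19.6%). The choice lies before the start codon, which is in the next exon.

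Phkb was read almost wholly on unannotated forms. The leading one has 31 exons, held 33 of 40 usable reads (82.5%) in replicate 1 and 43 of 59 (72.9%) in replicate 2, and differs from Phkb-201 by skipping a 109-base exon, chr8:85843004-85843112, that holds 52 coding bases. That exon was included in 1 of 40 and 0 of 59 reads, 2.5% and 0%, with an upper exact 95% limit of 13.2% and 6.06%. A second unannotated form, with 6 reads (15.0%) and 16 reads (27.1%), also exchanges a 91-base exon at chr8:86026457-86026547 for another of the same length at chr8:86025198-86025288 that the annotation lacks. The annotated exon (plus strand, mm10), printed because it was in 34 of 40 and 43 of 59 reads, reads as follows.
Phkb exon: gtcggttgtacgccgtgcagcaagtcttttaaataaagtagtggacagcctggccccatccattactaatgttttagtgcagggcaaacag
Both exons have 91 bases, so their exchange keeps the length of the transcript.

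All 87 usable reads of Gbe1 in replicate 1 and all 87 in replicate 2 fell on 1 form classed as unannotated. Its only difference from Gbe1-203 is an intron placed 4 bases upstream, at 70401850 to 70433544 in place of 70401854 to 70433548 on chromosome 16. The spliced sequence around the junction, shown with those 4 bases in capitals, was found without a difference in Gbe1-201, whose intron sits where the reads place it.
Gbe1 junction: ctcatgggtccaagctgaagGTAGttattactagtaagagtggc
Both placements of the intron spell the same transcript over this window, so the reads cannot tell them apart.

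Pfkm-201 held 391 of 408 usable reads (95.8%) in replicate 1 and 342 of 367 (93.2%) in replicate 2. A form with a longer first exon, whose donor is at 98108660, held 17 (4.17%) and 25 (6.81%). Besides these, 43 and 36 reads, or 8.21% and 7.68% of the gene's reads, lay on a model with 22 exons that lacks the first exon of Pfkm-201 and was classed as incomplete. It began at 98112121 in replicate 1 and 98112034 in replicate 2, beside a start that RefSeq annotates after chr15:98111810-98112059. Both positions lie inside the first intron of Pfkm-201, 98108612 to 98112153, so Pfkm-201 lacks the bases at the start of this model. That window and the one just before the first exon of Pfkm-201, chr15:98108221-98108470, are shown (GRCm38.p6, plus strand). They are shown because models of the gene began beside both. Starts of single reads were not available.
Pfkm promoter before Pfkm-201: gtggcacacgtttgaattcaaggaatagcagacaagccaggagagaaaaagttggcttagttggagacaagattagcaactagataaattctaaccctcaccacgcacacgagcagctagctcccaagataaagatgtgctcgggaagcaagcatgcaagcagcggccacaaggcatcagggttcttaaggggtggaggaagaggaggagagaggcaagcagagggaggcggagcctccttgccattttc
Pfkm promoter before the model with 22 exons: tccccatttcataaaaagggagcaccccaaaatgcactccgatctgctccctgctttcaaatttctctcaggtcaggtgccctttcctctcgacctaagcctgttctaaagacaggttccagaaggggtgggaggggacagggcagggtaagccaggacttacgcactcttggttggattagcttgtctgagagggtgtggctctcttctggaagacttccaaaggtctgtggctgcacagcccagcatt
Whether single reads of this model began there by transcription or were cut short was not tested.

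Hk2 had 17 and 26 usable reads, fewer than the 20 required in replicate 1, so its forms were not tested and are given as counts. Hk2-201 held 10 and 17. An unannotated form with 7 and 9 reads begins at a first exon inside the gene, chr6:82751730-82751854, and lacks the first 2 annotated exons, of which the first carries the annotated start codon. In Aldoa, a first exon at chr7:126800002-126800046 was used in 18 and 15 reads, 0.40% and 0.33%, and Aldoa-203 in 9 and 10. The 14 unannotated forms with at least 5 reads in each library came from 7 of the genes, Aldoa, Eno1, Eno3, Gbe1, Hk2, Pfkm and Phkb, with 663 and 727 reads, and the same filter found 1241 such forms in 871 genes over all.

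RefSeq promoter windows, 250 bases before to 50 after a start, were matched for 29 of the genes as 44 windows; Slc2a4 has none in the table. They held a median of 58.8% G and C and 14.5 CG pairs, against 52.7% and 7 over 32851 windows. Single windows held 0 to 38 CG pairs. Within the muscle set named at the start, Pgam2 had 1, Eno3 had 3, Pygm had 4, the windows of Pfkm had 4 to 12, and Hk2 had 25. Their isozymes had 30 for Pgam1, 14 to 25 for Eno1, 21 for Pygb, 22 for Pygl, 20 for Pfkl, 21 for Pfkp, and 1 and 20 for the windows of Hk1. Other muscle forms held 14 for Gys1, 25 for Phka1 and 2 for Phkg1. The E-box motif CANNTG, on either strand, was in 33 of the 44 windows (75%), against 72.3% of all windows. The ERR motif TNAAGGTCA was in 1 of the 44, that of Tpi1, against 1.28% of all. The MEF2 motif was in the windows of Pgam2 and Pfkfb1, 4.55%, against 3.19% of all. The 250 bases before Pgam2, chr11:5803797-5804046 on the minus strand of GRCm38.p6, are printed with the MEF2 motif in capitals, 80 to 71 bases before the start.
Pgam2 promoter: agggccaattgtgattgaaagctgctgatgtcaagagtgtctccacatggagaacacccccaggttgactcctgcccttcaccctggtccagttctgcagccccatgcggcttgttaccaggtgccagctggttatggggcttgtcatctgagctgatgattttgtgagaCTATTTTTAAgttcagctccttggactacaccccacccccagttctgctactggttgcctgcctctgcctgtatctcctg
A match of letters is a description of the window and not a measured binding site.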

How the data were processed

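Total RNA of 14-day heart was read as long cDNA in 2 libraries of 1 group. Per the file headers and accompanying notes, the authors deposited counts of reads per TALON transcript model, as whole numbers, with exon coordinates on mm10 and the GENCODE M21 annotation; the sources used here give no aligner, filter or version. The members and lists were chosen with earlier results of these data known. Reads were summed per gene over all classes and divided by all reads other than spike-ins (CPM). Unannotated forms were matched between libraries by chromosome, strand and intron chain. Genes that had at least 10 reads were compared by an exact binomial test, two-sided, and forms and exons with at least 20 by Fisher's exact test. P-values were adjusted over all features (Benjamini-Hochberg, threshold 0.05), and the code was checked on simulated data (SciPy 1.17.1, Python 3.11.15). Intervals are exact at 95%. DESeq2 1.42.0 and edgeR 4.0.16 in R 4.3.3 gave alternative totals only. Named were all 30 members, the 8 highest other pathway genes (some genes of this list are not reported here), leading forms and second forms of at least 10%, exons past the filter, the 12 largest unannotated forms and the 3 members with the smallest p. Gene copies (Eno1b, Pgk1-rs7, Gapdh-ps15, Gapdhs) were chosen after their values were seen. Sequences are from GENCODE M21 transcripts and RefSeq promoter windows; no genome was used here.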

Additional observations from a re-analysis of the deposited data

Results flagged for a closer look

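Models of the antisense class were in no comparison above. Reads on such models lying over the genes, on the opposite strand, exceeded the 3 reads that a count of 0 allows in both libraries for 3 genes. Hk1 had 10 in replicate 1 and 10 in replicate 2, Pfkm had 10 and 6, and Phkb had 7 and 8. The sources used here do not say whether the libraries keep strand. Whether these antisense-class reads come from the genes themselves or from an antisense partner was not tested.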

How the results depend on the processing

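No paired analysis was possible because there is 1 group with 2 libraries. The summed CPM of the genes, 15733, was 16195 with the genomic class left out and 18219 on annotated models alone. It was 15569 to 15897 when either library was left out. Where classes were left out, here and below, CPM were scaled to the reads of the classes kept, so a value could rise. The median share of the leading isozyme over the 8 families, 86.9%, was 83.2% on annotated models alone. The mean share of the leading first exon, 96.2%, was 96.9% on annotated forms alone, 92.6% with incomplete forms added and 95.1% with first exons grouped by start within 50 bases. The count of genes of the pathway called between the libraries was 1 with DESeq2 size factors (Pgam2) and 0 under the other settings run. All genes called numbered 120 to 169 over the alternatives. Called forms and exons stayed at 0 of the pathway under every alternative run. The unannotated forms, 14 at 5 reads in each library, numbered 20 at 3 reads and 10 at 10 reads. Of 305 values of single genes, forms and exons, 81 moved by more than the spread between the libraries. A reversal was looked for only in the log2 ratios of Pygm, Pfkm and Pgam2, where there were 0. Changes of order between isozymes were not counted. Phkg1 had 409 CPM with reads of an overlapping gene; on annotated models alone Hk2 had 19.1, Eno1 135, Phkb 0.75 and Gbe1 0 CPM. Eno3-201 held 63.7% among annotated forms alone, and Pygm-201 held 71.5% with incomplete forms counted. Leaving out the genomic class changed the incomplete share to 5.07%. Forms of genes with under 20 usable reads in either library, Hk2 among them, were not tested.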
